A study of Caenorhabditis elegans with 9 samples.

Results

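Hedgehog-related and patched-related genes were taken as every gene of the deposited expression sheet whose symbol is *wrt*, *grd*, *grl*, *ptr* or *ptc* followed by a number. This gave 60 of the 14218 genes of that sheet: 9 warthog (*wrt*), 11 groundhog (*grd*), 15 ground-like (*grl*), 23 patched-related (*ptr*) and 2 patched (*ptc*) genes. Within the sheet the symbols alone decided membership, and no measured value entered that rule. The members were chosen with earlier results of these data known. The annotation lists 83 such genes. The other 23 were not in the sheet, and each had an RPKM (reads per kilobase of transcript and 1000000 mapped reads) under 1 in every library. Of the 60, 55 reached the minimum level for testing, and *grl-6*, *grl-8*, *grl-14*, *grl-22* and *grl-27* did not.

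The libraries were made from RNA of whole *C. elegans* at the fourth larval stage (L4), 3 libraries per genotype, each from a pool of synchronised animals fed OP50 bacteria. ATF-4OE animals carry *ldIs119*, 1 integrated array with *atf-4* genomic DNA fused to GFP under its own promoter together with the collagen marker *rol-6(su1006)*, so an effect of ATF-4 and an effect of the marker or of the insertion cannot be told apart. The *atf-4(tm4397)* animals carry a deletion in *atf-4*, and WT animals were N2. ATF-4 is a bZIP transcription factor that is translated preferentially when protein synthesis is reduced. The question addressed here is which of the Hedgehog-related and patched-related genes differed in mRNA level when *atf-4* was overexpressed or lost.

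Nematodes lack a true Hedgehog ligand and the Hedgehog signal transducer Smoothened, but carry large families related to both ends of the pathway. Warthog and groundhog proteins are secreted proteins with a Wart or Ground domain, and some also hold the self-cleaving Hog domain that Hedgehog proteins share. Ground-like proteins hold a domain related to Ground. Patched (PTC) and patched-related (PTR) proteins are membrane proteins with a sterol-sensing domain. Many of these genes are expressed in epidermis, seam cells and other cuticle-making epithelia, and several are needed for moulting, osmotic balance or shaping of the apical extracellular matrix.

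Levels are given in parts of 1000000 (ppm) of a library's summed RPKM, so they can be compared between genes per length. *atf-4* itself had 5289, 4184 and 6845 ppm in ATF-4OE, 3.81, 3.69 and 9.31 ppm in *atf-4(tm4397)* and 199.6, 167.7 and 214.5 ppm in WT. *rol-6* had 4448, 3019 and 3943 ppm in ATF-4OE, 750, 655 and 1379 ppm in *atf-4(tm4397)* and 605, 962 and 572 ppm in WT. Both genes therefore followed the genotypes as the sheet used here names its columns. The RPKM sheet names 6 of the 9 libraries as another genotype, and no member passed the test under those names. Depth was estimated from the steps between low RPKM values at 23.9 to 35.2 (median 27.5), in units of 1000000 reads per library. This estimate is uncertain, since only 40.6 to 50.2% of the low values then corresponded to whole reads.

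The families covered a wide range of levels at L4. Averaged over the 9 libraries, *grl-16* stood highest at 853 ppm, followed by *grl-7* at 370 ppm, *grd-5* at 323 ppm, *grl-5* at 305 ppm and *wrt-10* at 290 ppm. *grl-16* ranged from 698 to 903 ppm in ATF-4OE, from 478 to 1241 ppm in *atf-4(tm4397)* and from 516 to 1424 ppm in WT, and it was the most abundant member in each of the 9 libraries although libraries of 1 genotype differed. Among the receptors, *ptc-3* was highest at 223 ppm, ahead of *ptr-4* at 139 ppm and *ptr-18* at 127 ppm. PTC-3 is needed in epidermis and for moulting, PTR-4 shapes the precuticle during moulting, and PTR-18 acts in the epidermis to keep progenitor cells quiescent in newly hatched larvae. The least expressed members that were tested were *ptr-19* and *grd-11*, at 2.37 and 2.47 ppm.

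Summed over all 60 members, the level was 6354, 5334 and 5765 ppm in ATF-4OE, 4200, 4670 and 6578 ppm in *atf-4(tm4397)* and 4121, 5208 and 4169 ppm in WT. Each ATF-4OE library was above each WT library, but *atf-4(tm4397)* replicate 3 was the highest of the 9. The groundhog genes summed to 1534, 1555 and 1477 ppm in ATF-4OE, 752, 738 and 869 ppm in *atf-4(tm4397)* and 774, 1322 and 711 ppm in WT. Groundhog was the family whose ATF-4OE libraries lay closest together and above every other library.

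In ATF-4OE against WT, 19 of the 55 members tested rose and 2 fell (limma, adjusted p under 0.1). Of all 11287 genes tested, 22.1% rose and 14.4% fell by the same rule. With the added limit of a log2 fold change beyond 1, 7 members rose (*grl-21*, *ptr-8*, *grl-4*, *grd-13*, *grd-10*, *grl-1* and *grd-3*) and 1 fell (*ptr-24*), against 6.02% and 2.96% of all genes. All 3 ATF-4OE libraries lay above all 3 WT libraries for 20 members and below them for 3, against 25.1% and 23% of all genes. The median log2 fold change was 0.43 over the members and 0.0088 over all genes, and 47 members were above 0 and 8 below. The number that passed depended on single libraries. It was 7 higher without ATF-4OE replicate 1 or without WT replicate 3 and 10 higher without ATF-4OE replicate 3, and 4 were lower without WT replicate 2. Without ATF-4OE replicate 1 or WT replicate 3, the 12 that no longer passed were *wrt-3*, *wrt-10*, *grd-3*, *grl-1*, *grl-12*, *ptc-1*, *ptr-1*, *ptr-3*, *ptr-5*, *ptr-10*, *ptr-14* and *ptr-25*. *grd-10*, *grd-13*, *grl-4*, *grl-21*, *ptr-8*, *ptr-12*, *ptr-21* and *ptr-24* passed in each of 19 alternative fits under the library names used. On this log2(ppm + 1) scale the change of low genes is understated.

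**Figure D1:**
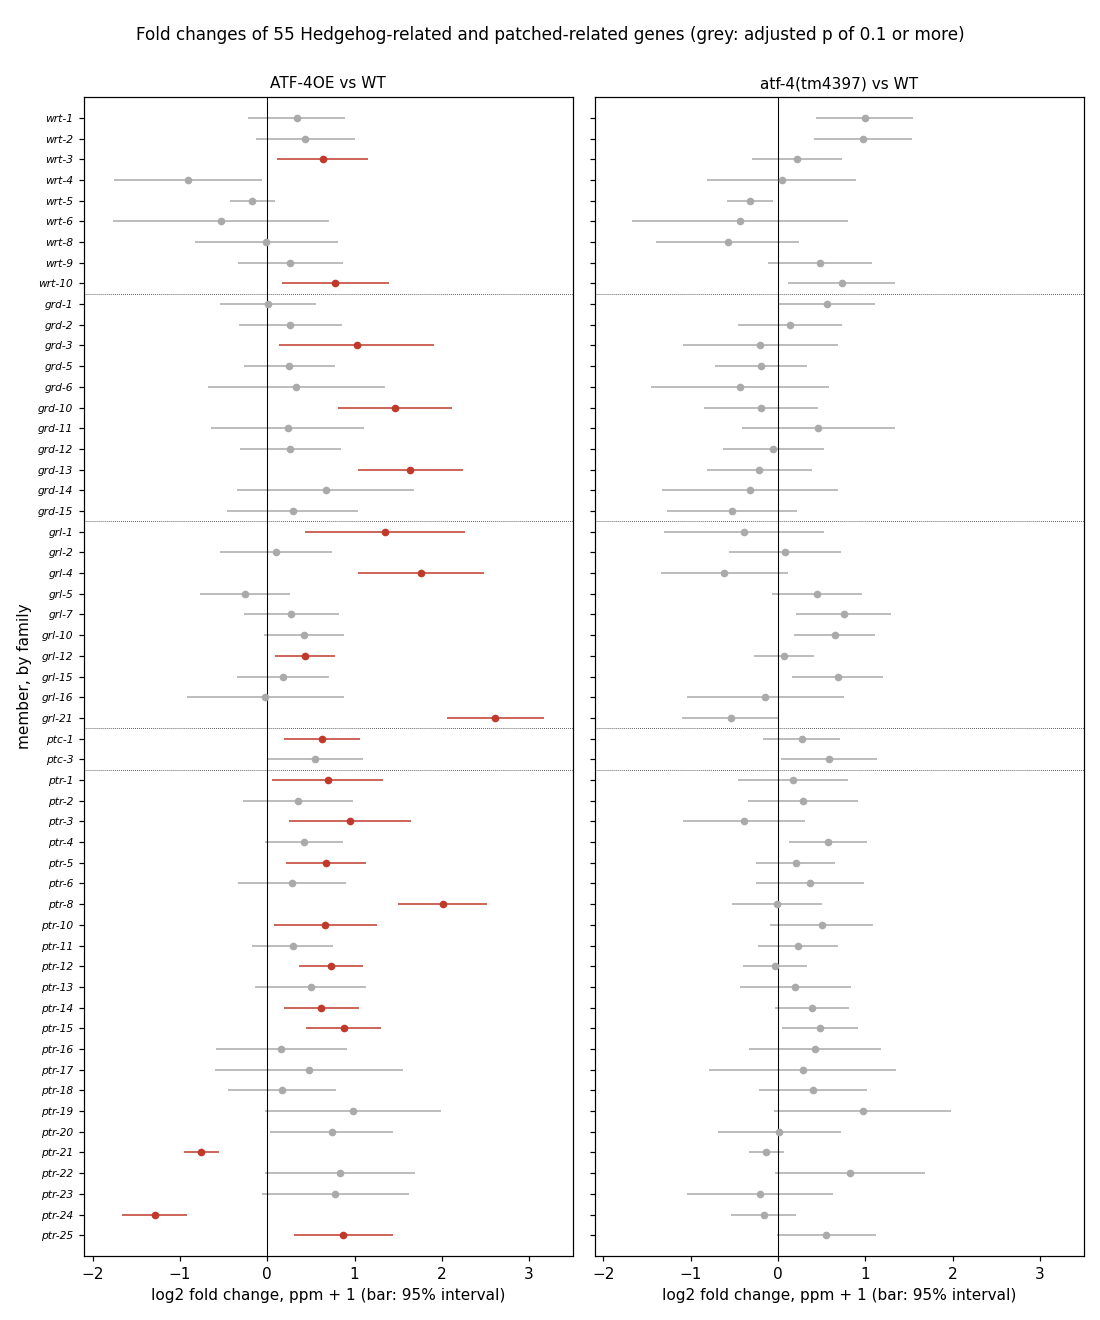
Log2 fold changes (level + 1 ppm) of the 55 members tested, by family, for ATF-4OE against WT (left) and *atf-4(tm4397)* against WT (right). Points are limma estimates, bars their 95% intervals, coloured points have an adjusted p under 0.1 and grey points do not. In ATF-4OE *grl-21* stands furthest to the right at 2.61 and *ptr-24* furthest to the left at -1.29, and no point passes in the mutant.

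Warthog genes are the first of the ligand families. *wrt-10* and *wrt-3*, or 22.2% of the family, rose in ATF-4OE and 0 of 9 fell, beside 22.1% and 14.4% of all genes. The family's median log2 fold change was 0.27, with 5 members above 0 and 4 below. *wrt-10* had 369, 321 and 317 ppm in ATF-4OE, 400, 283 and 299 ppm in *atf-4(tm4397)* and 313, 136 and 173 ppm in WT. ATF-4OE was above WT in every library, narrowly so for WT replicate 1, and ATF-4OE and *atf-4(tm4397)* overlapped. The log2 fold change was 0.78 ± 0.27 (SE) against WT (limma, adjusted p = 0.0602) and did not pass when any 1 ATF-4OE library, WT replicate 2 or WT replicate 3 was left out.

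*wrt-3* had 16.99, 16.2 and 14.6 ppm in ATF-4OE, 11.03, 10.5 and 13.5 ppm in *atf-4(tm4397)* and 10.3, 14.3 and 6.45 ppm in WT. Its lowest ATF-4OE library barely cleared WT replicate 2. Its log2 fold change was 0.64 ± 0.23 (SE, limma, adjusted p = 0.0684), and it did not pass with a replicate block by the numbers of the sheet (limma, adjusted p = 0.101) or without any 1 ATF-4OE library or WT replicate 1 or 3. With the numbers of mutant replicates 2 and 3 exchanged, as another sheet has them, the block kept the call (limma, adjusted p = 0.0368). Of its exon bases, 41.1% are shared with a pseudogene on the same strand, so its reads are uncertain.

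*wrt-4* was the warthog gene with the largest difference below 0. It had 67.4, 66.4 and 76.2 ppm in ATF-4OE, 80.6, 187 and 166 ppm in *atf-4(tm4397)* and 123, 83.6 and 223 ppm in WT. ATF-4OE lay below all other libraries, and the mutant and WT overlapped. WT itself differed 2.67-fold between libraries. The log2 fold change of ATF-4OE against WT, -0.91 ± 0.38 (SE), missed the limit (limma, adjusted p = 0.106). *wrt-4* passed as lower with a replicate block by the numbers of the sheet and with the exchanged numbers (limma, adjusted p = 0.0978 and 0.0656), and without WT replicate 2 (limma, adjusted p = 0.0381). *wrt-2*, a gene of seam cells and epidermis, had 85.8, 59.6 and 70.6 ppm in ATF-4OE, 102, 88.2 and 125 ppm in *atf-4(tm4397)* and 77.5, 38.8 and 47.4 ppm in WT. ATF-4OE overlapped WT in *wrt-2*, and all 3 mutant libraries lay above both. *wrt-5*, which is needed for embryonic morphogenesis, varied little, with 22.9, 27.6 and 23.9 ppm in ATF-4OE, 24.7, 22.3 and 19.8 ppm in *atf-4(tm4397)* and 26.5, 29.7 and 27.8 ppm in WT.

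Groundhog genes were all above 0 in ATF-4OE against WT, 11 of 11, with a median log2 fold change of 0.29. Only *grd-13*, *grd-10* and *grd-3* of them passed, or 27.3% of the family, beside 22.1% of all genes. These 3 lie next to each other on chromosome IV of WBcel235, all on the + strand: *grd-13* at IV:3438312-3439507, *grd-3* at IV:3439655-3440453 and *grd-10* at IV:3441055-3441841. The gaps are 147 and 601 bp with no coding gene between them, and none of their exons overlaps another annotated gene. The 3 coding genes on each side are not among the genes of the sheet, so levels around the trio were not analysed here.

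*grd-13* had 267, 275 and 257 ppm in ATF-4OE, 88.0, 66.5 and 66.7 ppm in *atf-4(tm4397)* and 86.1, 130.1 and 54.5 ppm in WT. The lowest ATF-4OE library was well above the highest of the other 6. The level was 3.12-fold higher than in WT (log2 1.64 ± 0.26 SE, limma, adjusted p = 0.00295). *grd-10*, whose promoter is used to mark seam cells, had 314, 334 and 296 ppm in ATF-4OE, 141, 107 and 64.4 ppm in *atf-4(tm4397)* and 144, 127 and 79.2 ppm in WT. Again no library of ATF-4OE came near the others, and the level was 2.76-fold higher than in WT (log2 1.46 ± 0.29 SE, limma, adjusted p = 0.00687).

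*grd-3* lies between them and showed the smallest and least stable rise of the trio. It had 155, 164 and 175 ppm in ATF-4OE, 107, 86.9 and 36.2 ppm in *atf-4(tm4397)* and 125, 74.4 and 55.6 ppm in WT. The ATF-4OE libraries were above all others, but WT differed 2.24-fold and the mutant 2.96-fold within themselves. The log2 fold change was 1.02 ± 0.39 (SE, limma, adjusted p = 0.0821), and it no longer passed when any 1 ATF-4OE library, WT replicate 2 or WT replicate 3 was left out (adjusted p up to 0.252).

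**Figure D2:**
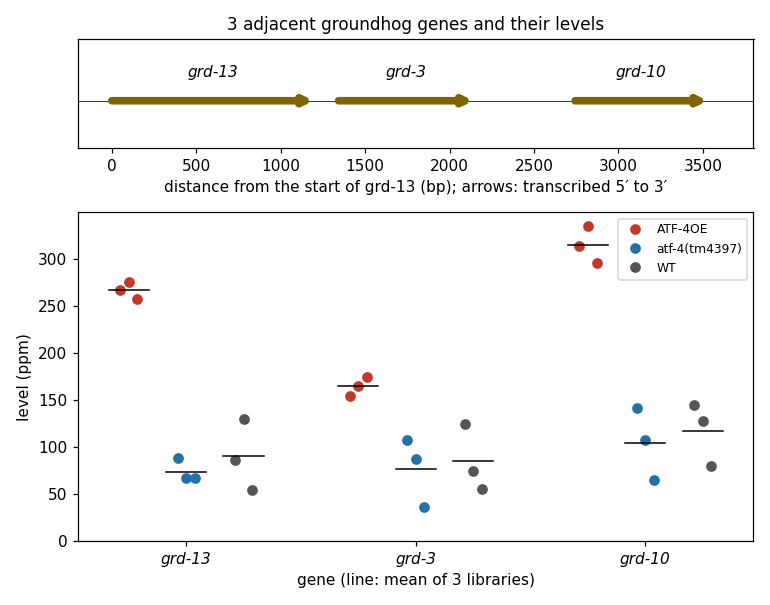
Top, the 3 adjacent groundhog genes drawn to scale by distance in bp from the start of *grd-13*; bottom, the level in ppm of each gene in each library of ATF-4OE, *atf-4(tm4397)* and WT, with lines at the means of 3 libraries. ATF-4OE averages 267, 164 and 315 ppm for *grd-13*, *grd-3* and *grd-10*, against 90.2, 84.8 and 117 ppm in WT.

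The groundhog genes of higher level outside the trio did not pass. *grd-5* had 376, 410 and 329 ppm in ATF-4OE, 238, 256 and 327 ppm in *atf-4(tm4397)* and 229, 454 and 287 ppm in WT. *grd-14* had 290, 273 and 290 ppm in ATF-4OE, 103, 121 and 232 ppm in *atf-4(tm4397)* and 106, 384 and 140 ppm in WT. In both genes WT replicate 2 was higher than every ATF-4OE library while the other WT libraries were lower. Their log2 fold changes against WT were 0.25 ± 0.23 and 0.67 ± 0.45 (SE). Without WT replicate 2 they were 0.53 and 1.22, and both genes passed as higher (limma, adjusted p = 0.0547 and 0.0216).

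Ground-like genes held both the largest rise and the most abundant member. *grl-21*, *grl-4*, *grl-1* and *grl-12* rose in ATF-4OE, 0 of the 10 tested fell, and the median log2 fold change was 0.35. The share that rose was 40%, beside 22.1% of all genes. *grl-21* (WBcel235, IV:10737474-10738191, + strand) had 207, 195 and 180 ppm in ATF-4OE, 26.3, 20.97 and 16.4 ppm in *atf-4(tm4397)* and 35.5, 40.3 and 20.4 ppm in WT. The ATF-4OE libraries stood far above all others, and mutant and WT overlapped. The level was 6.12-fold higher than in WT (log2 2.61 ± 0.25 SE, limma, adjusted p = 0.000364) and 8.90-fold higher than in the mutant (log2 3.15 ± 0.25 SE, limma, adjusted p = 0.000199).

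*grl-4* (WBcel235, IV:7309838-7310760, - strand) had 355, 303 and 344 ppm in ATF-4OE, 64.4, 65.5 and 60.8 ppm in *atf-4(tm4397)* and 77.3, 185 and 64.8 ppm in WT. WT replicate 2 stood apart from the other WT libraries and still lay below ATF-4OE. The level was 3.39-fold higher than in WT (log2 1.76 ± 0.32 SE, limma, adjusted p = 0.00491). *grl-1* (WBcel235, V:5530725-5533855, - strand) had 23.7, 20.1 and 20.6 ppm in ATF-4OE, 5.37, 4.40 and 7.82 ppm in *atf-4(tm4397)* and 4.61, 17.9 and 5.44 ppm in WT. WT replicate 2 came close to ATF-4OE in *grl-1*. Its log2 fold change of 1.35 ± 0.40 (SE, limma, adjusted p = 0.0356) became 1.90 when that library was left out, and it did not pass without ATF-4OE replicate 1, WT replicate 1 or WT replicate 3.

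*grl-12* had a small rise, with 12.7, 10.6 and 10.7 ppm in ATF-4OE, 10.5, 6.94 and 8.45 ppm in *atf-4(tm4397)* and 8.59, 8.27 and 7.48 ppm in WT (log2 0.43 ± 0.15 SE, limma, adjusted p = 0.0619), and it did not pass without any 1 of the 3 WT libraries or without ATF-4OE replicate 1 or 3. *grl-10* had 54.4, 44.0 and 39.3 ppm in ATF-4OE, 51.5, 48.3 and 61.2 ppm in *atf-4(tm4397)* and 44.3, 25.2 and 34.3 ppm in WT, and did not pass. For *grl-16* the log2 fold change was -0.02 ± 0.40 (SE), with a 95% interval from -0.92 to 0.88, so a change of nearly that size could not be seen at this spread.

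The patched genes themselves differed by less. *ptc-1*, which is needed for cytokinesis in the germ line, had 53.8, 36.97 and 62.6 ppm in ATF-4OE, 31.9, 41.2 and 44.4 ppm in *atf-4(tm4397)* and 32.9, 33.7 and 29.5 ppm in WT. ATF-4OE lay above WT and overlapped the mutant. The log2 fold change against WT was 0.63 ± 0.19 (SE, limma, adjusted p = 0.0399) and did not pass without ATF-4OE replicate 1 or 3 or without WT replicate 3. *ptc-3* had 286, 189 and 258 ppm in ATF-4OE, 199, 207 and 367 ppm in *atf-4(tm4397)* and 162, 187 and 147 ppm in WT. The lowest ATF-4OE library of *ptc-3* was next to the highest WT library, and the log2 fold change of 0.55 ± 0.24 (SE) did not pass (limma, adjusted p = 0.129).

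Of the 23 patched-related genes, 21 were above 0 in ATF-4OE against WT, with a median log2 fold change of 0.67. In this family 9 rose (*ptr-1*, *ptr-3*, *ptr-5*, *ptr-8*, *ptr-10*, *ptr-12*, *ptr-14*, *ptr-15* and *ptr-25*) and 2 fell (*ptr-21* and *ptr-24*). That is 39.1% and 8.70% of the family, beside 22.1% and 14.4% of all genes. *ptr-8* (WBcel235, II:10889279-10893277, + strand) had 65.6, 48.9 and 74.3 ppm in ATF-4OE, 16.3, 17.5 and 10.7 ppm in *atf-4(tm4397)* and 18.7, 14.01 and 12.004 ppm in WT. The ATF-4OE libraries were far above the other 6, and mutant and WT overlapped. The level was 4.02-fold higher than in WT (log2 2.01 ± 0.23 SE, limma, adjusted p = 0.000819).

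*ptr-12* had 29.6, 24.5 and 28.4 ppm in ATF-4OE, 16.5, 16.1 and 14.9 ppm in *atf-4(tm4397)* and 17.9, 19.3 and 12.1 ppm in WT, which is a rise of 1.66-fold over WT (log2 0.73 ± 0.16 SE, limma, adjusted p = 0.0111). *ptr-15* had 17.3, 13.3 and 13.6 ppm in ATF-4OE, 11.7, 8.79 and 12.6 ppm in *atf-4(tm4397)* and 9.42, 5.76 and 7.77 ppm in WT. The mutant libraries lay below ATF-4OE and overlapped WT, and the log2 fold change against WT was 0.87 ± 0.19 (SE, limma, adjusted p = 0.0106). The other 6 that rose had log2 fold changes from 0.62 (*ptr-14*) to 0.95 (*ptr-3*), and *ptr-1*, *ptr-3* and *ptr-10* overlapped between ATF-4OE and WT. *ptr-1*, at an adjusted p of 0.0977 by limma, did not pass with a replicate block by the numbers of the sheet and passed with the exchanged numbers.

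*ptr-24* and *ptr-21* went the other way. *ptr-24* (WBcel235, X:13338028-13348125, + strand) had 10.3, 12.5 and 13.2 ppm in ATF-4OE, 24.3, 31.7 and 26.3 ppm in *atf-4(tm4397)* and 29.4, 25.8 and 37.9 ppm in WT. The highest ATF-4OE library was well below the lowest of the other 6. The log2 fold change was -1.29 ± 0.16 (SE, limma, adjusted p = 0.00127). *ptr-21* had 38.6, 38.4 and 39.7 ppm in ATF-4OE, 63.2, 57.4 and 60.7 ppm in *atf-4(tm4397)* and 70.1, 63.6 and 65.1 ppm in WT. Summed over the 3 genotypes its range between replicates was the smallest of the 55 members, and its log2 fold change of -0.75 ± 0.09 (SE, limma, adjusted p = 0.000918) was small but well outside that spread. *ptr-4*, the most abundant patched-related gene, had 182, 116 and 141 ppm in ATF-4OE, 148, 140 and 196 ppm in *atf-4(tm4397)* and 126, 89.4 and 109 ppm in WT, and did not pass (log2 0.42 ± 0.20 SE, limma, adjusted p = 0.147). It passed as higher with a replicate block by the numbers of the sheet (limma, adjusted p = 0.0984) but not with the exchanged numbers (limma, adjusted p = 0.163), and it also passed with library weights and without ATF-4OE replicate 2.

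**Figure D3:**
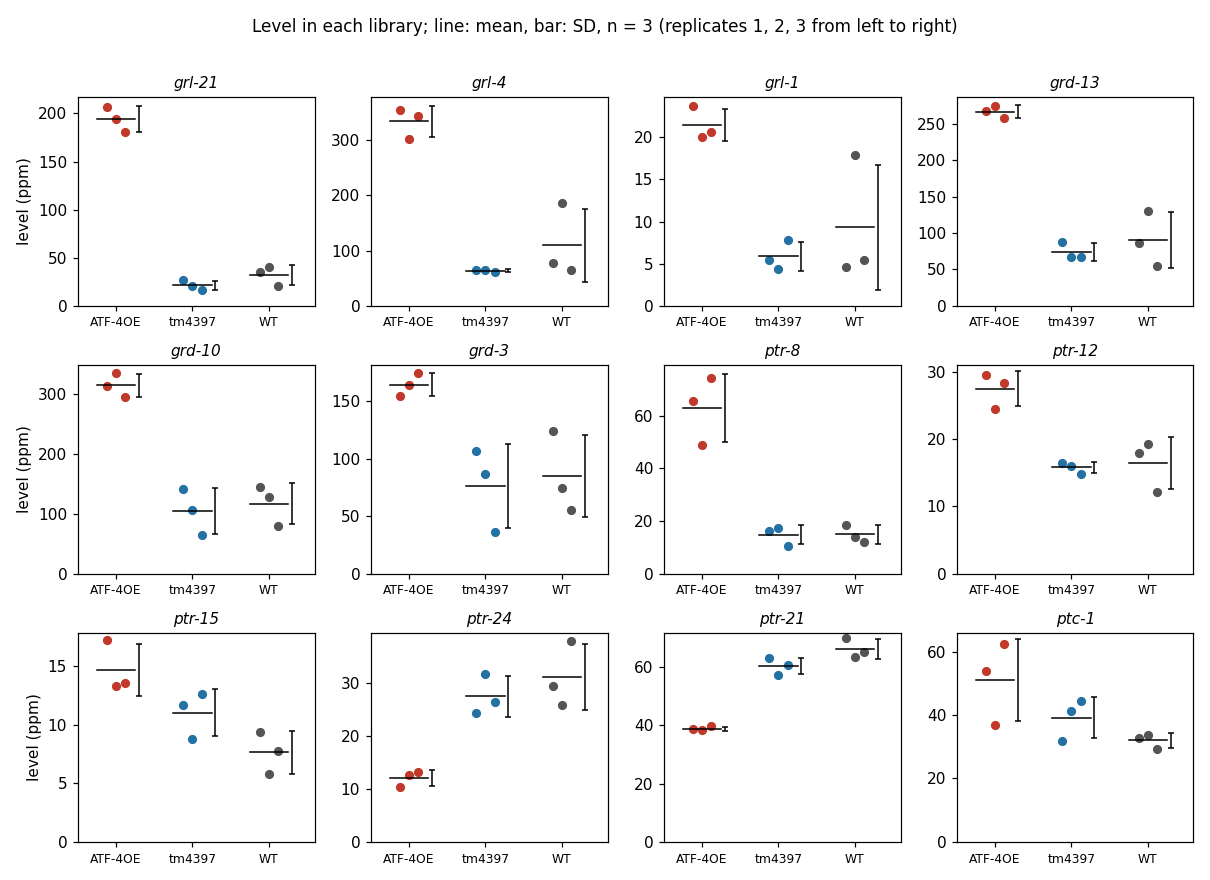
Level in ppm of 12 members in each library of ATF-4OE, *atf-4(tm4397)* (written tm4397) and WT. Points are libraries (replicates 1, 2 and 3 from left to right), lines means and bars SDs of 3 libraries, and each vertical axis starts at 0. ATF-4OE stands clear of the other libraries for *grl-21*, *grl-4*, *grd-13*, *grd-10*, *ptr-8* and *ptr-12* above and for *ptr-24* and *ptr-21* below.

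Loss of *atf-4* had no member past the limit. In *atf-4(tm4397)* against WT, 0 of 55 members rose and 0 fell (limma, adjusted p under 0.1), where 0.0354% of all genes rose and 0.0177% fell. At an unadjusted p under 0.05, 10 members were higher and 1 was lower in the mutant, against 5.01% and 5.41% of all genes. The members with the smallest unadjusted p were *wrt-1*, *wrt-2* and *grl-10*. *wrt-1* had 145, 112 and 108 ppm in ATF-4OE, 182, 155 and 248 ppm in *atf-4(tm4397)* and 135, 72.4 and 89.1 ppm in WT. Its log2 fold change in the mutant against WT was 0.995 ± 0.25 (SE, limma, adjusted p = 0.461). The mutant libraries of *wrt-1*, *wrt-2* and *grl-10* all lay above the WT libraries. This held for 9 of the 55 members, or 16.4%, against 6.07% of all genes. For 2 members, or 3.64%, all mutant libraries lay below WT, against 7.98% of all genes.

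Without WT replicate 1, *wrt-1*, *wrt-2* and *wrt-10* passed as higher in the mutant (limma, adjusted p = 0.0904, 0.0729 and 0.0800). *wrt-1* and *wrt-10* are neighbours on chromosome II that face each other with their 3′ ends, 15 bp apart. The members that rose most in ATF-4OE were not lower in the mutant beyond the spread. For *ptr-8* the log2 fold change of the mutant against WT was -0.01 ± 0.23 (SE), with a 95% interval from -0.53 to 0.50. For *grl-21* it was -0.54 ± 0.25 (SE, limma, adjusted p = 0.476), and for *grl-4* -0.61 ± 0.32 (SE, limma, adjusted p = 0.499).

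In ATF-4OE against *atf-4(tm4397)*, 10 members rose and 5 fell, where 19.8% of all genes rose and 13.8% fell. The 10 were *grl-21*, *grl-4*, *grl-1*, *grd-13*, *grd-10*, *grd-3*, *ptr-8*, *ptr-12*, *ptr-3* and *ptr-23*, and the 5 were *ptr-21*, *ptr-24*, *grl-5*, *wrt-1* and *wrt-4*. This comparison shares its ATF-4OE libraries with that against WT, so the lists are not independent. *grl-4* was 5.18-fold higher than in the mutant (log2 2.37 ± 0.32 SE, limma, adjusted p = 0.00173), and *ptr-8* 4.06-fold (log2 2.02 ± 0.23 SE, limma, adjusted p = 0.000783). *ptr-24* had a log2 fold change of -1.12 ± 0.16 (SE, limma, adjusted p = 0.00228). *ptr-23*, which acts in osmotic balance, had 99.6, 69.3 and 99.1 ppm in ATF-4OE and 34.9, 36.7 and 65.7 ppm in *atf-4(tm4397)* (limma, adjusted p = 0.0829) and did not pass without ATF-4OE replicate 1 or 3 or mutant replicate 1 or 2. With a replicate block by the numbers of the sheet *ptr-23* did not pass, and *ptr-15* rose and *wrt-2* fell (limma, adjusted p = 0.0966 and 0.0905). With the exchanged numbers all 15 calls held, *ptr-15* and *wrt-2* did not pass, and *grd-14*, *grd-5*, *grl-12* and *ptr-20* passed as well. *grd-3* did not pass without any 1 ATF-4OE library. The calls of *grl-5*, *wrt-1* and *wrt-4* rested on single libraries, and without ATF-4OE replicate 2 or 3 or without mutant replicate 3 only *ptr-21* and *ptr-24* fell.

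**Figure D4:**
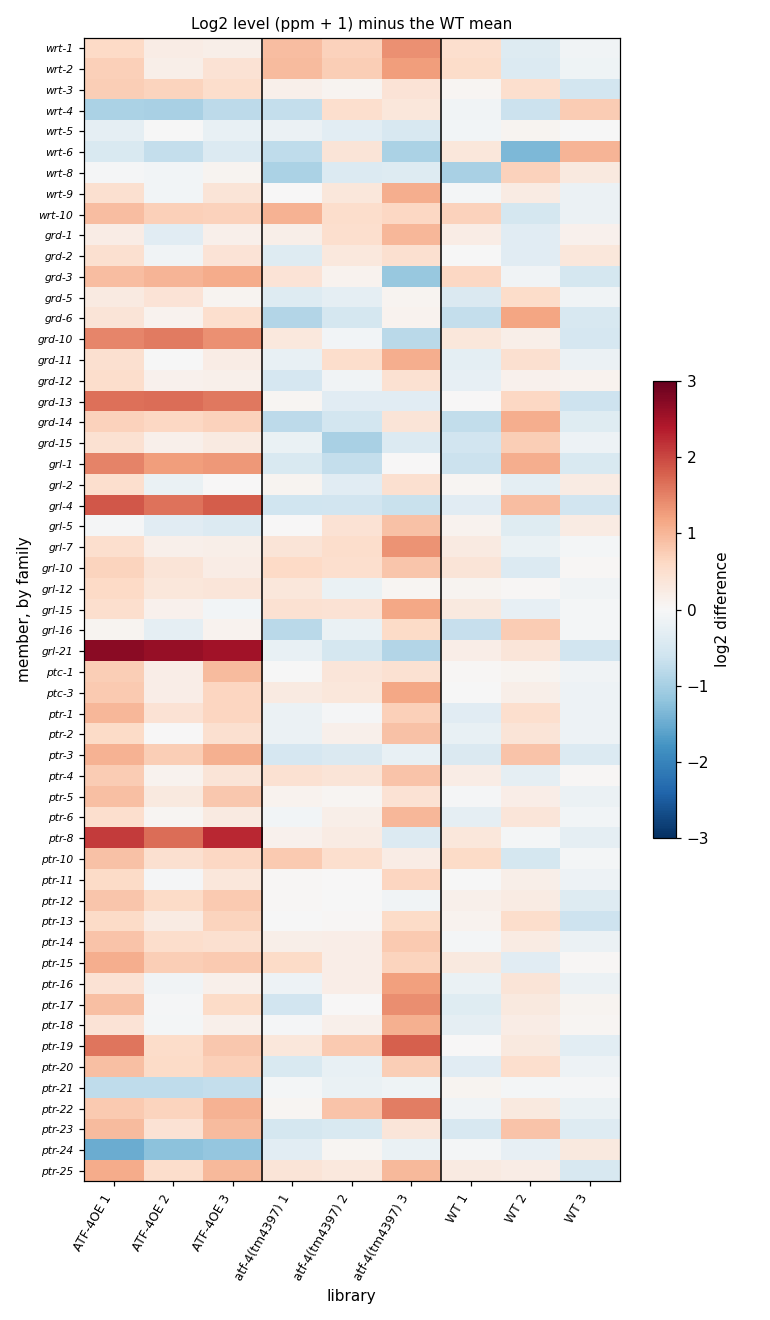
Log2 level (ppm + 1) of the 55 members tested in each of the 9 libraries, minus the mean of the 3 WT libraries, where red is higher and blue lower than the WT mean, on a scale from -3 to 3. *grl-21* and *ptr-8* are the reddest in ATF-4OE, *ptr-24* the bluest, and WT replicate 2 and *atf-4(tm4397)* replicate 3 differ from the other libraries of their genotype in many members.

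The members varied more between replicates than most genes did. The median range between the libraries of 1 genotype was 0.39 log2 units in ATF-4OE, 0.73 in *atf-4(tm4397)* and 0.69 in WT for the members, against 0.32, 0.42 and 0.29 for all genes. A range over 1 log2 unit occurred for 1 member in ATF-4OE, 16 in *atf-4(tm4397)* and 17 in WT, or 1.82%, 29.1% and 30.9%, against 4.25%, 14.1% and 10.5% of all genes. Warthog genes had the widest median range in WT, 1.04 log2 units, and *wrt-6* the largest of all, with 93.4, 78.7 and 97.1 ppm in ATF-4OE, 76.4, 169 and 66.8 ppm in *atf-4(tm4397)* and 164, 50.2 and 262 ppm in WT.

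**Figure D5:**
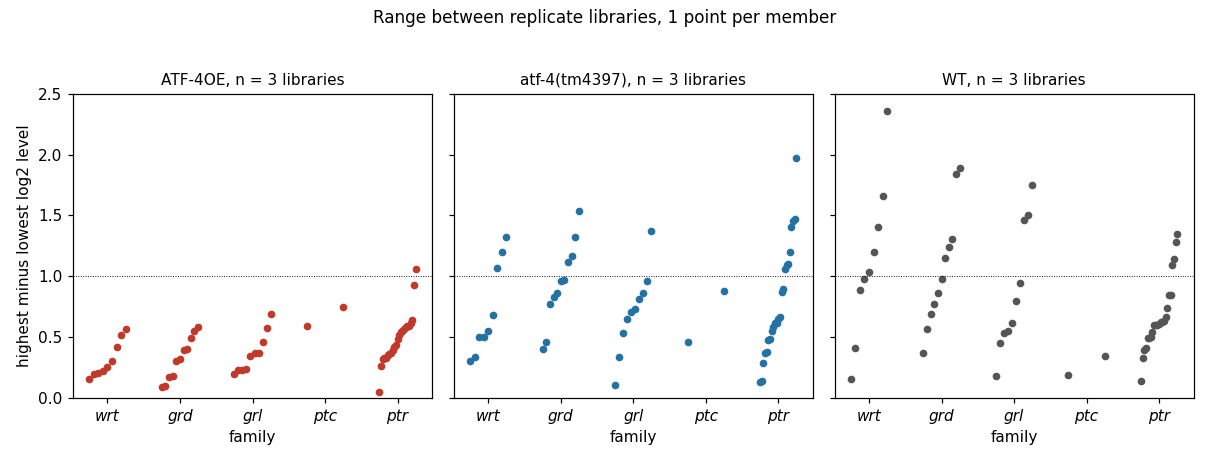
Highest minus lowest log2 level (ppm + 1) among the 3 libraries of ATF-4OE (left), *atf-4(tm4397)* (middle) and WT (right), 1 point per member, by family. The dotted line marks 1 log2 unit, which 1, 16 and 17 members exceed in these genotypes.

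The highest values of the members fell more often in some libraries than in others. Their lowest WT values were in replicates 1, 2 and 3 for 19, 17 and 19 members. WT replicate 2 was the highest WT library for 33 of 55 members and *atf-4(tm4397)* replicate 3 the highest mutant library for 39, where 37.98% and 39.1% of all genes had their highest value in these libraries. In ATF-4OE, replicate 1 was highest for 38 members and replicate 2 lowest for 41, or 69.1% and 74.5%, against 43.04% and 49.4% of all genes. WT replicate 2 lay more than 0.5 log2 units above the mean of the other WT libraries for 20 members, led by *grd-6* (1.77), *grl-1* (1.65) and *grd-14* (1.65), and below it for 11, led by *wrt-6* (-2.02), *wrt-4* (-0.98) and *ptr-10* (-0.78). Among all genes 8.39% and 8.96% were so far above and below. In *atf-4(tm4397)* replicate 3, 29 members were as far above the other mutant libraries and 4 below, against 9.97% and 12.9% of all genes, with *ptr-17* (1.68), *ptr-19* (1.23) and *ptr-16* (1.22) highest and *grd-3* (-1.39) and *grd-10* (-0.92) among the lowest. The sum of 13 sperm genes was 8.98 to 17.3 ppm in ATF-4OE, 6.19 to 187 ppm in *atf-4(tm4397)* and 6.34 to 103.6 ppm in WT, and its lowest values in the mutant and in WT were in the same 2 libraries. The sperm sums of the 3 ATF-4OE libraries lay below those of WT replicates 1 and 3 (25.9 and 103.6 ppm). They lay above that of WT replicate 2. Sperm genes switch on during L4. The part of developmental timing in the spread between replicates, and in the differences between ATF-4OE and WT, was not tested.

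Other relatives of the Hedgehog pathway were also measured. Of 12 such genes, of which *che-14* and *daf-6* also stand in the epidermal and glial lists, 10 were tested, and *hhat-2* and *hhat-1*, relatives of the acyltransferases that modify Hedgehog, rose in ATF-4OE against WT. *hhat-2* had 8.96, 8.47 and 8.67 ppm in ATF-4OE and 5.94, 5.10 and 6.60 ppm in WT (log2 0.50 ± 0.15 SE, limma, adjusted p = 0.0389), and *hhat-1* a log2 fold change of 0.39 ± 0.14 (SE, limma, adjusted p = 0.0717). These 2 of 10 stand beside 22.1% of all genes, and the list's median log2 fold change was 0.34 against WT, beside 0.0088 over all genes. Of the list, 0 of 10 passed in the mutant against WT, and *hhat-2* alone passed against the mutant. Among those that did not pass were *qua-1*, a further hedgehog-related gene needed for moulting (log2 0.17 ± 0.26 SE), and *che-14*, a Dispatched relative of epithelia (log2 0.40 ± 0.17 SE). Of 21 moulting regulators and matrix genes, 9 rose and 0 fell in ATF-4OE against WT, beside 22.1% and 14.4% of all genes. In the mutant against WT 0 passed. In ATF-4OE against the mutant 2 of the list fell, beside 13.8% of all genes. Those with the smallest adjusted p against WT were the transcription factor genes *grh-1* (log2 0.85 ± 0.21 SE, limma, adjusted p = 0.0156) and *nhr-23* (log2 0.99 ± 0.24 SE, limma, adjusted p = 0.0163), followed by the matrix genes *let-653* and *lpr-3*. Over the 21 genes the median log2 fold change against WT was 0.48 both in ATF-4OE and in the mutant. The counts that passed therefore differ while the medians do not.

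Markers of several tissues moved with ATF-4OE as well. Against WT, 8 of 11 epidermal, 4 of 4 seam cell, 1 of 5 glial, 10 of 11 neuronal, 7 of 9 body wall muscle, 5 of 7 pharyngeal and 4 of 6 excretory canal markers rose and 0 fell, while 7 of 9 intestinal markers fell and 0 rose. Of all genes, 22.1% rose and 14.4% fell against WT, and the glial count is near the first share. None of 11 sperm, 12 germline and 3 oocyte markers passed against WT. The 12 germline markers still summed to 155 to 170 ppm in ATF-4OE, 181 to 542 ppm in *atf-4(tm4397)* and 226 to 246 ppm in WT. Their median log2 fold change in ATF-4OE against WT was -0.70. Against the mutant, 11 of 11 neuronal, 3 of 4 seam cell, 5 of 9 muscle, 3 of 6 excretory canal, 2 of 11 epidermal and 1 of 7 pharyngeal markers rose, while 9 of 12 germline, 5 of 9 intestinal, 1 of 3 oocyte and 1 of 11 epidermal markers fell, and 0 glial and 0 sperm markers passed. Of all genes, 19.8% rose and 13.8% fell in ATF-4OE against the mutant. The epidermal and pharyngeal counts there do not exceed these shares. In the mutant against WT 0 markers passed, but that count does not show the size of the changes. The epidermal median log2 fold change was 0.87 in the mutant against WT and 0.75 in ATF-4OE against WT. For seam cell markers these medians were 0.31 and 1.03, and for neuronal markers 0.015 and 0.84. The 5 seam cell markers in the sheet summed to 44.7 to 69.3 ppm in ATF-4OE, 28.2 to 45.9 ppm in *atf-4(tm4397)* and 19.9 to 27.8 ppm in WT, and the 11 epidermal markers to 4026 to 4550 ppm in ATF-4OE, 4746 to 5748 ppm in *atf-4(tm4397)* and 2866 to 5007 ppm in WT. In whole animals a larger share of RNA from a tissue and more RNA of a gene per cell cannot be told apart, and the part of the marker shifts in the members' changes was not tested. No summed list was at 0 in any library.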

How the data were processed

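RNA of 9 whole-animal libraries was measured by sequencing in 1 lane. Reads were mapped by the authors with STAR 2.4.0j (build WBcel235) and assigned to genes with featureCounts, and whether this used strand is not given in the sources used here. The authors deposited RPKM values per gene and a sheet of scores, in which each library's RPKM was centred and scaled on a linear scale. The scores were shifted so that the smallest in a library was 0 and rescaled to total 1000000 per library (ppm), which is proportional to RPKM. Library names differ between sheets. Those of the sheet of scores were taken, and a further sheet, of the most regulated genes, matched them by genotype in 9 of 9 libraries while exchanging *atf-4(tm4397)* replicates 2 and 3. Read numbers could not be recovered (40.6 to 50.2% of low RPKM values corresponded to whole reads), so no count model was run. Fold changes, p-values and term lists that the authors deposited were not used.

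The 11287 genes reaching 5 ppm in any library entered the test. limma 3.58.1 (R 4.3.3) fitted log2(ppm + 1) of all 9 libraries with a variance trend, without a block, two-sided, with Benjamini-Hochberg adjustment over all genes, and a gene passed at an adjusted p under 0.1. The 3 libraries a group are independent replicates per the labels. The fit was tested on simulated data. Gene positions came from Ensembl release 115.

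Values in every library were given for *ptc-1* and *ptc-3*, the most abundant member of each other family, up to 5 members per family with the smallest adjusted p in ATF-4OE against WT, and the 3 members with the smallest p in each other comparison. Of the lists of Hedgehog relatives and moulting genes, up to 4 genes that passed were named. *wrt-6*, *ptr-23*, *qua-1*, *che-14*, *bli-1*, *bli-2* and the members named by library deviations were chosen after their values were seen. Members and gene lists (Hedgehog relatives, moulting, and markers of epidermis, seam cells, glia, neurons, muscle, pharynx, intestine, excretory canal, sperm, germline and oocytes) were chosen with earlier results of these data known.

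Replicate numbers pair libraries, since per the labels strains were raised side by side within a replicate. Deviations from the group means correlated over genes at -0.683 between mutant and WT libraries numbered 2, and at 0.678 between mutant replicate 3 and WT replicate 2, so both numberings were run as a replicate block. With mutant replicate 3 and WT replicate 2, ATF-4OE replicate 2 correlated at -0.48 and -0.28. ATF-4OE replicate 1 correlated with them at 0.62 and 0.48. Neither numbering is therefore established as the pairing of the ATF-4OE libraries. Other alternatives were pseudocounts of 0.5 and 4, no filter, 5 ppm in 3 libraries, median-of-ratios scaling, the linear values, library weights, 2 groups only, the names of the RPKM sheet, and each library left out.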

Additional observations from a re-analysis of the deposited data

How the results depend on the processing

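Counts of members that passed in ATF-4OE against WT were 19 higher and 2 lower. They were 11 higher on the linear values as deposited and 29 higher with library weights, and 7 higher and 1 lower with the added log2 limit of 1. Leaving out 1 library gave 7 to 21 higher and 2 to 4 lower. With a replicate block by the sheet's numbers, 18 were higher and 3 lower (*ptr-4* and *wrt-4* gained, *ptr-1* and *wrt-3* lost), and with mutant replicates 2 and 3 exchanged 20 and 3. In *atf-4(tm4397)* against WT the count was 0 higher and 0 lower under every alternative but 1, and 0 to 3 higher with 1 library left out. In ATF-4OE against the mutant the counts were 10 higher and 5 lower. They were 6 higher and 2 lower on the linear values, 18 higher with library weights, 16 higher with 2 groups only, 1 lower with the log2 limit and 2 lower at an adjusted p under 0.05. Leaving out 1 library gave 8 to 15 higher and 2 to 6 lower, and the paired fit with the replicate block gave 10 and 6, or 14 and 5 with mutant replicates 2 and 3 exchanged. Under the library names of the RPKM sheet the counts were 0 in every comparison and direction. That sheet names 6 of the 9 libraries as another genotype, so its groups mix genotypes as the sheet used here names them. The cause of the shifts under the other alternatives was not tested.

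Of the 21 members called in ATF-4OE against WT, 8 passed in all 19 alternatives under the names used: *grd-10*, *grd-13*, *grl-4*, *grl-21*, *ptr-8*, *ptr-12*, *ptr-21* and *ptr-24*. With 3 libraries a genotype, the median SE of a member's log2 fold change was 0.26, against 0.17 for all genes.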
